A study of Mus musculus with 6 samples.

Results

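The transcripts of the mitochondrial genome were examined in hippocampal RNA-seq libraries made from 3 mice of each genotype, N-cre and N-cre;Fox1. They were chosen as every gene symbol that starts with mt-, which gave 37 of the 53354 symbols in the count table. These are 13 mRNA genes, 2 rRNA genes and 22 tRNA genes, each with a single annotated isoform and each located on the mitochondrial chromosome (chrM) of mm10, so that their genomic origin fits their name. N-cre mice, here also called controls, carried the Cre recombinase gene under the nestin promoter. N-cre;Fox1 mice carried the same Cre together with 1 copy of an Rbfox1 cDNA at Gt(ROSA)26Sor, placed behind the CAG promoter and a STOP cassette flanked by loxP sites. Cre was therefore present in both genotypes, and a line without it was not analysed here. All 6 mice were C57BL/6 and 3 months old, and each library was made from the total RNA of whole hippocampus, in which neurons, where nestin-driven Cre is active, are mixed with glia and vessels. The comparison asks how raising Rbfox1, an RNA-binding protein that regulates splicing and mRNA stability in neurons, accompanies the levels of transcripts that are made inside mitochondria.

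The mitochondrial genome is a small circular DNA present in many copies per cell. Both of its strands are transcribed into long precursors by the RNA polymerase Polrmt with the factors Tfam and Tfb2m, and tRNAs that lie between the other genes are cut out to release mRNAs and rRNAs. The mRNAs encode core subunits of respiratory chain complexes I, III and IV and of ATP synthase (complex V), the rRNAs form the mitochondrial ribosome, and hippocampal neurons depend on this machinery for synaptic transmission. Of the 37 genes, 28 are annotated on the plus strand of chrM and 9 on the minus strand, and mt-Nd6 is the 1 mRNA gene among those 9.

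Several mt- genes have nuclear copies, which are stretches of mitochondrial DNA that were inserted into the nuclear chromosomes. A block of 4663 nt at chr1:24611535-24616197 (mm10) holds 7 annotated copies, of which 5 are identical in every letter to the mt- gene over their whole length. The beginnings of mt-Nd3 (chrM:9459-9518, plus strand) and of its copy Gm28438 (chr1:24613060-24613119, minus strand) are shown because this pair carries the largest deposited difference between the genotypes and differs by a single base, given in capitals.

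mt-Nd3: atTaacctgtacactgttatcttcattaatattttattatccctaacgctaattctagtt

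Gm28438: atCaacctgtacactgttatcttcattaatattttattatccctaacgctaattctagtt

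Counted from 1 at the 5′ end of mt-Nd3, the difference is T3C, and the remaining 344 of the 345 aligned bases are the same. The ends of mt-Co2 (chrM:7637-7696, plus strand) and of its copy Gm28661 (chr1:24614885-24614941, minus strand) show how the identical copies stop short of the gene, with the bases that the copy lacks in capitals.

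mt-Co2: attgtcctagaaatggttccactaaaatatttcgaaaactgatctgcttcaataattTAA

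Gm28661: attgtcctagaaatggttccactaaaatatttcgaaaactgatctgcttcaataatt

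The 681 bases of Gm28661 are all present in mt-Co2, and the 3 bases beyond them are the TAA stop codon. Read pairs that lie within such stretches carry no letter that tells gene and copy apart, and RSEM divided them between both. The counts of an mt- gene with a copy are therefore uncertain, and each log2 fold change is given below as deposited and with the counts of its copies added.

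Overlaps among the mt- genes matter for mt-Nd6. The last 40 bases of mt-Nd5 (chrM:13526-13565, plus strand) and of mt-Nd6 (chrM:13552-13591, minus strand) face each other, and the 14 bases that both genes share on opposite strands are in capitals.

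mt-Nd5: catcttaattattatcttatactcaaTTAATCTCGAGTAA

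mt-Nd6: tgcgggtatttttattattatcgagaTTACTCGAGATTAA

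The kit preserved the strand of the RNA, but the strand setting of the counting is not given in the sources used here. Reads of mt-Nd6 and of transcripts from the opposite strand of the same stretch can therefore not be told apart with certainty. On the plus strand, mt-Atp8 and mt-Atp6 share 43 bases and mt-Nd4l and mt-Nd4 share 7 bases.

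The libraries held 40463587 to 62141336 read pairs assigned to genes. Rbfox1 itself had 15286, 14456 and 14698 normalised counts in controls and 15939, 13571 and 15283 in N-cre;Fox1 mice, with a log2 fold change of 0.01 (SE 0.0566). The genotypes overlapped, so that the summed Rbfox1 count does not check the labels. For hippocampi of N-cre;Fox1 mice the paper reports modestly higher Rbfox1 mRNA, without showing the data, and higher Rbfox1 protein by western blot. Summed markers of choroid plexus stood at 164 to 180 CPM (counts scaled to the total of each library) in 4 mice but at 3130 in N-cre replicate 3 and 6922 in N-cre;Fox1 replicate 2, which were therefore also left out together. Summed markers of hippocampal excitatory neurons, at 6954 to 7846 CPM, were high in all 6 mice and overlapped between the genotypes. Of these 9 markers, 1 was lower in every N-cre;Fox1 mouse, against 6.11% of all genes tested, and 0 were higher, against 6.06%. It was Wfs1 (log2 fold change -0.35, SE 0.151), named after its values were seen.

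Transcripts of the mitochondrial genome took a slightly smaller share of the library in N-cre;Fox1 mice. The 37 genes together held 5.93%, 5.94% and 5.86% of the read pairs in the 3 N-cre mice and 5.71%, 5.66% and 5.65% in the 3 N-cre;Fox1 mice. The genotypes did not overlap, and the means were 5.91% ± 0.0470 (SD, n = 3) and 5.67% ± 0.0313 (SD, n = 3). With so many counts the sampling error was small, at a 95% Wilson interval of 5.85% to 5.86% for the shallowest library (N-cre replicate 3), an interval that covers counting error only. Because the tissue was sequenced in bulk, fewer cells rich in mitochondria and less mitochondrial RNA per cell cannot be told apart. The difference of the means was -0.236 percentage points, and it was -0.258 without the 2 mice with high choroid plexus counts.

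The lower share came from the mRNA genes. They held 5.39%, 5.44% and 5.33% of the library in controls and 5.21%, 5.12% and 5.04% in N-cre;Fox1 mice, again with no overlap. The rRNA genes, at 0.540%, 0.507% and 0.526% in controls and 0.4995%, 0.544% and 0.613% in N-cre;Fox1 mice, overlapped. The 12 nuclear copies held 1.19% to 1.26% of the library. When they were counted with the mt- genes, the share was 7.18%, 7.20% and 7.11% in controls and 6.97%, 6.85% and 6.84% in N-cre;Fox1 mice, still without overlap.

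No mt- gene passed the threshold of the test for a difference between the genotypes. Of the 37 genes, 15 had enough counts to be tested, namely the 13 mRNA and 2 rRNA genes, and edgeR's quasi-likelihood test called 0 of these (adjusted p under 0.05), beside 0.0264% of all 18924 genes tested (5 genes). At an unadjusted p under 0.05 there were 4 of the 15, all lower in N-cre;Fox1 mice, against 2.60% of all genes at that level and in that direction. Limma-voom also called 0 of the 15, beside 6 of all genes tested. The Wald test of DESeq2 called 1 of the 15, mt-Nd6, beside 50 of all genes tested. Without the 2 mice with high choroid plexus counts edgeR called 0, against 0.0366% of all genes in that fit, and 6 had an unadjusted p under 0.05. Of these 6, 5 were lower (mt-Nd1, mt-Co3, mt-Nd3, mt-Nd4 and mt-Nd6), against 2.84% of all genes, and 1 was higher (mt-Nd4l, deposited counts), against 2.90%. Negative log2 fold changes were seen in 11 of the 15, against 50.0% of all genes, and the median of the 15 was -0.07 beside -0.00 for all genes. Higher counts in every N-cre mouse than in any N-cre;Fox1 mouse were seen for 5 of the 15 genes (mt-Nd1, mt-Co1, mt-Co3, mt-Nd3 and mt-Nd6), against 6.11% of all genes, and 0 were higher in every N-cre;Fox1 mouse, against 6.06%. The members are cut from shared precursors, so that their directions are not independent of each other.

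**Figure D1:**
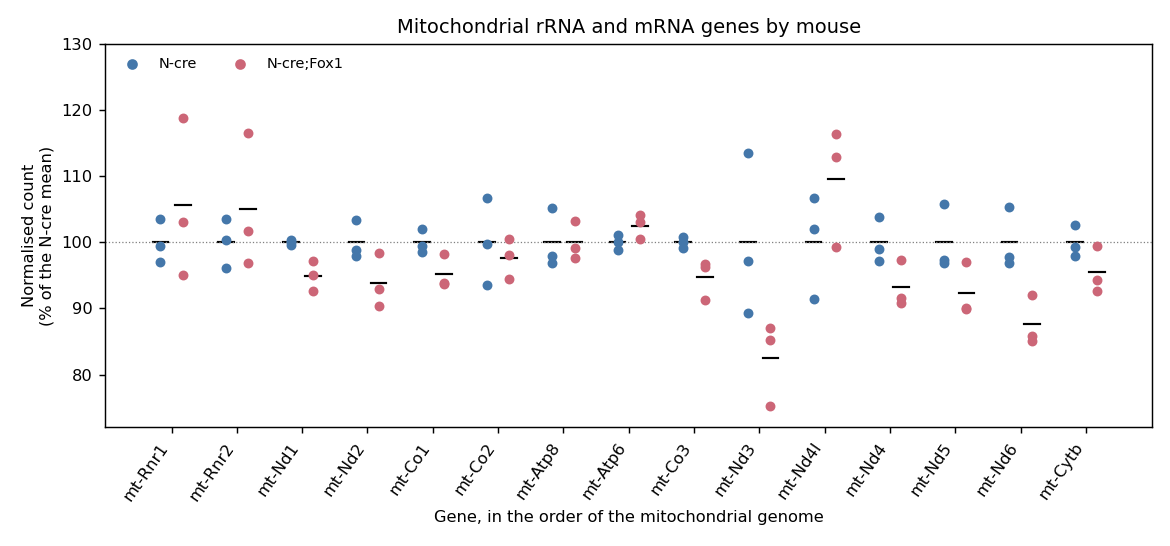
Normalised counts of the 15 tested mitochondrial genes in each mouse, as a percentage of the mean of the 3 N-cre mice (vertical axis), with genes in genome order (horizontal axis). Points are mice, blue for N-cre and red for N-cre;Fox1, and black lines are means of 3. The red points lie below all blue points for mt-Nd1, mt-Co1, mt-Co3, mt-Nd3 and mt-Nd6, and 1 N-cre;Fox1 mouse stands high for both rRNA genes.

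The rRNA genes did not separate the genotypes. mt-Rnr1 (chrM:70-1024), the RNA of the small ribosomal subunit, had 109902, 102903 and 105567 normalised counts in controls and 100825, 109419 and 126031 in N-cre;Fox1 mice. mt-Rnr2 (chrM:1094-2675), the RNA of the large subunit, had 178221, 165511 and 172774 in controls and 166823, 175120 and 200615 in N-cre;Fox1 mice. N-cre;Fox1 replicate 3 was the highest of the 6 mice for both genes and N-cre;Fox1 replicate 1 was the lowest for mt-Rnr1. The log2 fold changes were 0.08 (SE 0.0768) for mt-Rnr1 and 0.07 (SE 0.0661) for mt-Rnr2, with edgeR adjusted p = 0.940 and 0.935. Without N-cre;Fox1 replicate 3 they were -0.01 and -0.01, so that this mouse decides their sign.

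Both rRNAs varied together from mouse to mouse. mt-Rnr1 had 60.4 to 62.8 counts per 100 counts of mt-Rnr2 in the 6 mice, and per base its level was 100% to 104% of that of mt-Rnr2. Against the mRNAs, by contrast, the rRNAs varied, at 10.02, 9.32 and 9.86 rRNA counts per 100 mRNA counts in controls and 9.59, 10.6 and 12.2 in N-cre;Fox1 mice. The RNA was sequenced as total RNA, and the rRNA genes held about as much per base as mt-Nd5. The counts of Gm42418, a gene that overlaps nuclear rRNA, were 27.3, 30.3 and 34.3 CPM in controls and 23.7, 22.5 and 20.3 in N-cre;Fox1 mice, lower without overlap. Whether the removal of rRNA from the libraries differed between the mice was not tested.

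Complex I, which takes electrons from NADH, has 7 subunits encoded by mt- genes, and these included the 4 genes with an unadjusted p under 0.05. Their summed share of the library was 1.78%, 1.88% and 1.78% in controls and 1.75%, 1.68% and 1.66% in N-cre;Fox1 mice. The genotypes did not overlap, although the gap between the nearest mice was small.

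mt-Nd6 (chrM:13552-14070, minus strand) had the smallest unadjusted p of all mt- genes. Its normalised counts were 40841, 44442 and 41263 in controls and 38809, 35856 and 36200 in N-cre;Fox1 mice. All N-cre;Fox1 mice lay below all N-cre mice, with means of 42182 ± 1968 (SD, n = 3) and 36955 ± 1614 (SD, n = 3). The log2 fold change was -0.19 (SE 0.0488), with edgeR unadjusted p = 0.00273 and adjusted p = 0.608. With any single mouse removed it stayed between -0.22 and -0.15, and the adjusted p between 0.192 and 1.00. DESeq2's Wald test gave an adjusted p of 0.0164, so that the call depends on the test. No nuclear copy of mt-Nd6 was found, and its counts do not rest on a division with one.

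mt-Nd5 (chrM:11742-13565, plus strand) encodes another subunit of the membrane arm of complex I and meets mt-Nd6 end to end in the bases shown in capitals above. It had 199193, 217512 and 200242 normalised counts in controls and 199451, 184932 and 185199 in N-cre;Fox1 mice, with a log2 fold change of -0.12 (SE 0.0476) as deposited and -0.11 (SE 0.0474) with its copies. Set against each other, mt-Nd6 had 20.5, 20.4 and 20.6 counts per 100 counts of mt-Nd5 in controls and 19.5, 19.4 and 19.5 in N-cre;Fox1 mice. The ratio was tight within each genotype, at SDs of 0.0880 and 0.0790, and lower in N-cre;Fox1 mice by more than the whole spread of either group. Against mt-Cytb it was 11.5, 12.1 and 11.8 per 100 in controls and 10.9, 10.9 and 10.8 in N-cre;Fox1 mice. Both ratios were chosen after the values of mt-Nd6 were seen and are given as a description, with no test.

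**Figure D2:**
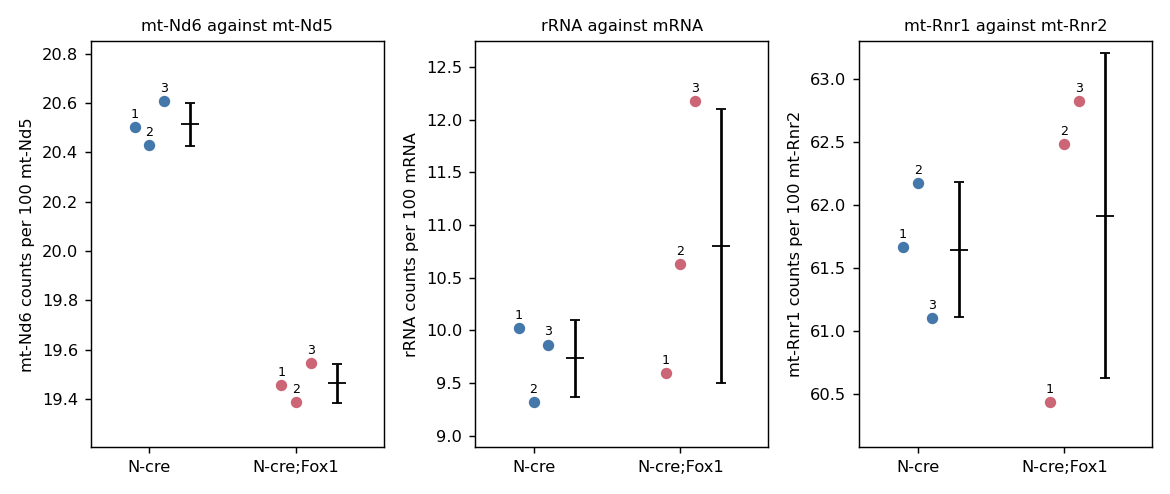
Ratios of counts between mitochondrial genes in each mouse by genotype (horizontal axis). The panels show mt-Nd6 counts per 100 mt-Nd5 counts, rRNA counts per 100 mRNA counts, and mt-Rnr1 counts per 100 mt-Rnr2 counts (vertical axes, which do not start at 0). Numbered points are the replicates and bars are mean ± SD of 3 mice. The mt-Nd6 ratio lies at 20.4 to 20.6 in controls and 19.4 to 19.5 in N-cre;Fox1 mice, whereas the other 2 ratios overlap.

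mt-Nd3 (chrM:9459-9806, plus strand), a small subunit of complex I, had the largest deposited difference, but it did not hold once its copy was counted. Its normalised counts were 9393, 8047 and 7398 in controls and 6224, 7210 and 7056 in N-cre;Fox1 mice, with a log2 fold change of -0.28 (SE 0.103) and edgeR unadjusted p = 0.0368. Its copy Gm28438 had 16147, 17546 and 16954 in controls and 19368, 15673 and 16361 in N-cre;Fox1 mice, and took 63.2% of the joint counts in N-cre replicate 1 and 75.7% in N-cre;Fox1 replicate 1. These same mice were the highest and the lowest for mt-Nd3. With the copy added, the log2 fold change was -0.07 (SE 0.0495, edgeR unadjusted p = 0.185) and the genotypes overlapped.

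mt-Nd4l (chrM:9877-10173, plus strand) had log2 fold changes of opposite sign without and with its copy. It had 10294, 10767 and 9228 normalised counts in controls and 11745, 10030 and 11395 in N-cre;Fox1 mice, with a log2 fold change of 0.13 (SE 0.0762), and with its copy Gm10222 added the value was -0.03 (SE 0.0431). Gm10222 took 75.04% ± 1.181 (SD, n = 3) of the joint counts in controls and 72.04% ± 1.74 (SD, n = 3) with the transgene.

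The other subunit genes of complex I depend little on copies. mt-Nd1 (chrM:2751-3707) was at 227872, 229498 and 228969 normalised counts in controls and 222255, 211988 and 217623 in N-cre;Fox1 mice. The N-cre mice differed by less than 1% of their mean, with an SD of 829, and all N-cre;Fox1 mice were lower, at a log2 fold change of -0.07 (SE 0.0352). mt-Nd2 (chrM:3914-4951) had a log2 fold change of -0.09 (SE 0.0431) and mt-Nd4 (chrM:10167-11544) of -0.10 (SE 0.0418), and with copies the values were -0.09 (SE 0.0429) and -0.10 (SE 0.0416). For both genes N-cre;Fox1 replicate 1 lay within the range of the N-cre mice. The edgeR unadjusted p was 0.0600 for mt-Nd1, 0.0610 for mt-Nd2 and 0.0356 for mt-Nd4.

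mt-Cytb (chrM:14145-15288), cytochrome b, is the only mt- gene of complex III, which passes electrons on to cytochrome c. It had 354507, 366458 and 349625 normalised counts in controls and 354951, 330318 and 336533 in N-cre;Fox1 mice. The genotypes overlapped through N-cre;Fox1 replicate 1, and the log2 fold change was -0.07 (SE 0.0392, edgeR unadjusted p = 0.116).

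Complex IV, cytochrome c oxidase, reduces oxygen and has 3 subunits encoded by mt- genes. Together these held 2.69%, 2.61% and 2.64% of the library in controls and 2.55%, 2.54% and 2.49% in N-cre;Fox1 mice, without overlap. mt-Co1 (chrM:5328-6872), the catalytic subunit, was the most abundant mRNA, at 1036820, 1002270 and 1011440 normalised counts in controls and 999401, 953875 and 953186 in N-cre;Fox1 mice. It had a log2 fold change of -0.07 (SE 0.0332, edgeR unadjusted p = 0.0612) as deposited and -0.07 (SE 0.0318) with its copies, and the gap between the lowest N-cre and the highest N-cre;Fox1 mouse was smaller than the spread within either genotype.

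mt-Co3 (chrM:8607-9390) had 271065, 269249 and 266711 normalised counts in controls and 245510, 258869 and 260033 in N-cre;Fox1 mice. This gave a log2 fold change of -0.08 (SE 0.0367) as deposited and -0.04 (SE 0.0324) with its copy Gm28437, which took 36.9% of the joint counts in N-cre;Fox1 replicate 1 and 30.97% to 31.9% in the other 5 mice. mt-Co2 (chrM:7013-7696) overlapped between the genotypes, with a log2 fold change of -0.03 in either count (SE 0.0511 as deposited and 0.0368 with copies).

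Complex V, ATP synthase, has mt-Atp6 and mt-Atp8 as its mitochondrially encoded subunits, both in the membrane part of the enzyme. mt-Atp6 (chrM:7927-8607) had 108661, 109862 and 107247 normalised counts in controls and 109117, 113003 and 111885 in N-cre;Fox1 mice, with a log2 fold change of 0.04 (SE 0.0362). Its copy Gm10925, at 206497, 204560 and 199809 in controls and 192812, 180010 and 182265 in N-cre;Fox1 mice, was lower without overlap (log2 fold change -0.14, SE 0.0393, edgeR adjusted p = 0.660). Added together, they had a log2 fold change of -0.08 (SE 0.0337), with every N-cre;Fox1 mouse below every N-cre mouse, so that the sign for mt-Atp6 depends on the division of the read pairs. mt-Atp8 (chrM:7766-7969) had equal means of 25260 ± 1144 (SD, n = 3) in controls and 25260 ± 736 (SD, n = 3) with the transgene.

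With the copies added, all 13 mRNA genes had a negative log2 fold change, from -0.19 for mt-Nd6 to -0.00 for mt-Atp8, and the rRNA genes kept their positive values. The median of the mRNA genes was -0.07 in both counts. The genotypes did not overlap for 5 genes, all lower in N-cre;Fox1 mice, which were now mt-Nd1, mt-Co1, mt-Atp6, mt-Co3 and mt-Nd6, against 6.10% of all genes tested in that direction. At an unadjusted p under 0.05 there were 4 (mt-Atp6, mt-Nd4, mt-Nd5 and mt-Nd6), all lower, against 2.59% of all genes in that direction, and 0 passed after adjustment, against 0.0264% (5 of 18912).

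**Figure D3:**
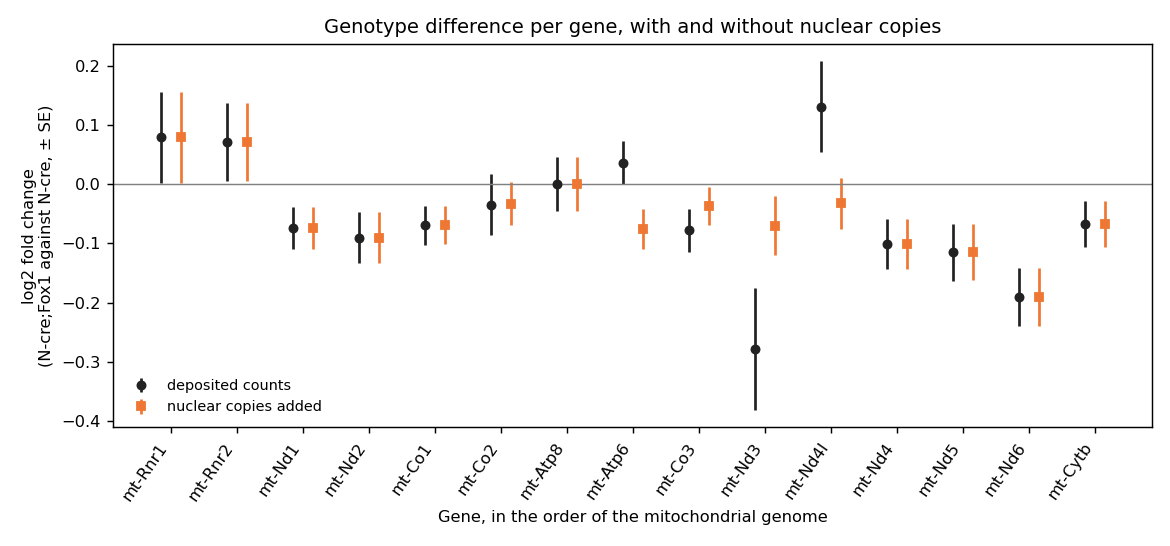
Log2 fold change between N-cre;Fox1 and N-cre mice (vertical axis, points with SE from edgeR) for the 15 tested genes in genome order (horizontal axis). Black circles are deposited counts and orange squares are counts with the nuclear copies added. The squares for all 13 mRNA genes lie at or below 0, and the values of mt-Atp6, mt-Nd3 and mt-Nd4l move most.

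When the mt- genes alone were taken as the library, their common shift was removed. The log2 fold change of mt-Nd6 was then -0.12 (-0.13 with copies), and that of mt-Cytb was 0.00. The rRNA genes were at 0.15 (mt-Rnr1) and 0.14 (mt-Rnr2), with an edgeR adjusted p of 0.114 for each. With copies they were at 0.14 and 0.13, with edgeR adjusted p = 0.471 and 0.334. In this setting the adjustment ran over the mt- genes alone, unlike the adjusted p values elsewhere, which run over all genes tested. The scale of the other values in that setting is relative to the summed mt- genes, so that a gene above 0 need not be higher in the tissue.

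The nuclear copies took a large and uneven part of the joint counts. Gm28661 took 64.5% to 67.0% of the counts of mt-Co2 and its copies, and Gm10925 took 61.4% to 65.5% for mt-Atp6. The shares were 70.8% to 76.3% for Gm10222 (mt-Nd4l), 63.2% to 75.7% for Gm28438 (mt-Nd3) and 30.97% to 36.9% for Gm28437 (mt-Co3). By contrast, Gm28439, whose 876 bases are all identical to mt-Nd4, took 0.269% to 0.367%, and Gm29216 took 4.47% to 5.39% for mt-Co1. Gm29216 aligned with 492 bases of mt-Co1, and its 6 differences (T1056A, C1057T, A1059G, A1060G, C1062A and A1066T, counted from 1 at the 5′ end of mt-Co1) all lie near the start of that stretch. A letter-identical copy therefore did not always receive a large share of the counts. No copy was found by the rule used for 6 of the 15 tested genes (mt-Rnr1, mt-Rnr2, mt-Nd1, mt-Atp8, mt-Nd6 and mt-Cytb), except that the last 43 bases of mt-Atp8, which it shares with mt-Atp6, also lie in Gm10925.

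**Figure D4:**
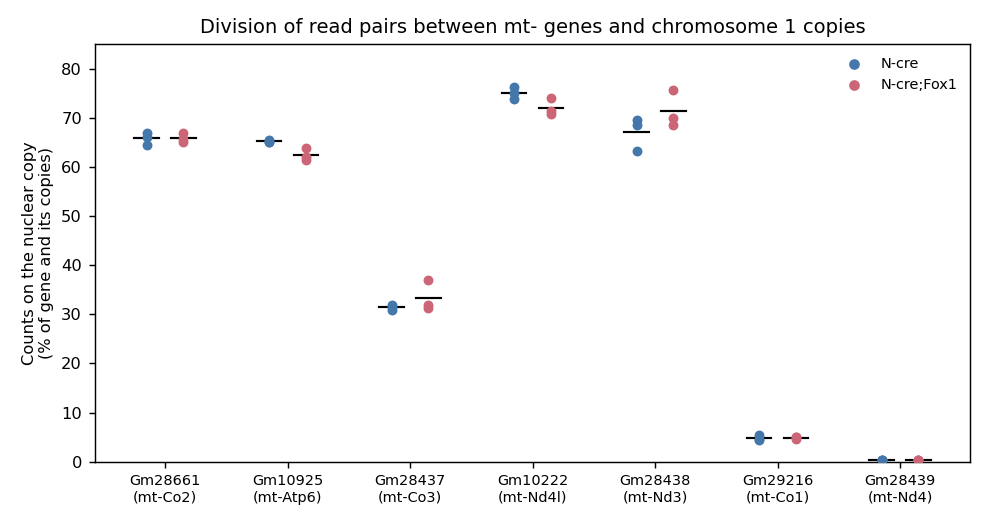
Counts assigned to the 7 nuclear copies on chromosome 1, as a percentage of the counts of the mt- gene and all its copies (vertical axis), with the mt- gene in parentheses (horizontal axis). Points are mice, blue for N-cre and red for N-cre;Fox1, and black lines are means of 3. The copies of mt-Co2, mt-Atp6, mt-Nd4l and mt-Nd3 hold over 60% in every mouse, and that of mt-Nd4 under 1%.

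The counted levels of the mt- mRNAs differed widely although they derive from shared precursors. Levels were divided by the full annotated length, with no correction for the size of the sequenced fragments. Those of the shortest mRNA genes, mt-Atp8 (204 nt), mt-Nd4l (297 nt) and mt-Nd3 (348 nt), may therefore be underestimated, which was not tested. Per length, as RPKM (CPM divided by the length in kilobases, a count being a read pair), mt-Co1 was highest at 12108 on average over the 6 mice (11576 to 12578), followed by mt-Co3 at 6295, mt-Cytb at 5743, mt-Nd1 at 4391 and mt-Nd4 at 3905. Lower levels were found for mt-Co2 at 3244, mt-Atp6 at 3043, mt-Nd2 at 3041 and mt-Atp8 at 2333, and then for mt-Rnr1 at 2153, mt-Rnr2 at 2102 and mt-Nd5 at 2043. The lowest levels per kilobase were those of mt-Nd6 at 1436, mt-Nd4l at 671 and mt-Nd3 at 409. The ranges over the mice overlapped between mt-Co3 and mt-Cytb, among mt-Co2, mt-Atp6 and mt-Nd2, and between neighbours from mt-Atp8 to mt-Nd5, so that their order is not resolved, whereas the other neighbours were apart.

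Much of this order rested on the division with the nuclear copies. With copies added, mt-Co2 moved to 9663, mt-Co3 to 9314, mt-Atp6 to 8419, mt-Nd4l to 2535 and mt-Nd3 to 1330 RPKM. The span from mt-Co1 to mt-Nd3 fell from 29.6-fold to 9.60-fold. All 3 subunit genes of complex IV then stood at the top, and mt-Nd6 and mt-Nd3 at the bottom with overlapping ranges. The bicistronic partners mt-Atp8 and mt-Atp6 differed in level per kilobase in every mouse. These levels divide by annotated lengths of 204 and 681 nt, and read pairs of mt-Atp6 are also divided with Gm10925. Whether gene length or this division accounts for the difference was not tested. The 43 bases that both genes share are in capitals in the end of mt-Atp8 (chrM:7910-7969, plus strand).

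mt-Atp8: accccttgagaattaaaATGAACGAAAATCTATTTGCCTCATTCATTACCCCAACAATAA

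The capitals start with the ATG of mt-Atp6 and end with the TAA of mt-Atp8. Both proteins are read from a single mRNA in different frames, and mt-Nd4l and mt-Nd4 are joined in the same manner. In the deposited counts mt-Nd4l stood at 671 and mt-Nd4 at 3905 RPKM, and with copies added at 2535 and 3918.

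**Figure D5:**
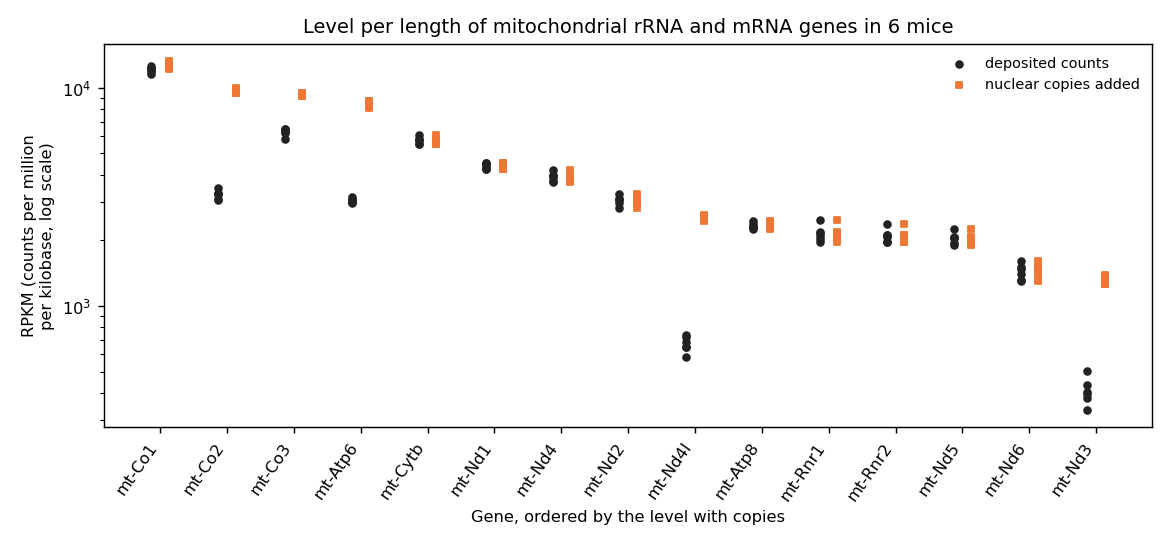
Levels per length in RPKM (vertical axis, log scale) of the 15 tested genes in the 6 mice, ordered by the level with copies (horizontal axis). Black circles are deposited counts and orange squares are counts with the nuclear copies added. mt-Co2, mt-Atp6, mt-Nd4l and mt-Nd3 rise most when the copies are added, and mt-Co1 is highest in both counts.

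Mitochondrial tRNAs were practically not represented. Of the 22 tRNA genes, 16 had 0 counts in all 6 mice. The other 6 had 12 counts in total, 6 in each genotype, and no mouse had more than 4. mt-Tm, the tRNA for methionine, had the most, with 3 counts in N-cre replicate 2, 2 in N-cre replicate 3 and 0 in the other mice, followed by mt-Ts1 with 1 count in each of 3 mice, and mt-Tq, mt-Tn, mt-Te and mt-Tp had 1 count each. The sequence of mt-Tm (chrM:3845-3913, plus strand) is given as an example of these short transcripts, which are 59 to 75 nt long.

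mt-Tm: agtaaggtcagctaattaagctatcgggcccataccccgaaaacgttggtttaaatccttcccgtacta

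In N-cre replicate 1 the tRNA genes had 0 of 62141336 read pairs, which allows a share of up to 4.83e-06% from counting error alone. The mitochondrial tRNAs are shorter than the read length given in the paper, so this bound does not limit their share in the tissue. They were not measurable with these libraries, and nothing can be said about their levels in the tissue. Short nuclear RNAs were also low, with snoRNA and snRNA genes at 5.73e-05% to 8.53e-05% of the library. This lay above the 0 to 8.94e-06% of the mitochondrial tRNA genes.

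The nuclear genes that maintain, transcribe and process mitochondrial nucleic acids were described from lists. Of 18 genes of mitochondrial transcription and DNA maintenance, all tested, 0 passed the adjusted threshold in edgeR and 0 had an unadjusted p under 0.05, against 2.60% lower and 3.59% higher of all genes, so that a count of 0 is near the background. The median log2 fold change was -0.01. Polrmt, the mitochondrial RNA polymerase, had a log2 fold change of 0.06 (SE 0.0401), and Tfam, which packages mitochondrial DNA and starts its transcription, of 0.04 (SE 0.0455). Tfb2m, which opens the promoter, had -0.09 (SE 0.0584), and the elongation factor Tefm -0.11 (SE 0.136). Polg, the catalytic subunit of the mitochondrial DNA polymerase, had 0.03 (SE 0.0336). The genotypes overlapped for each of these 5 genes.

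Of 35 genes of mitochondrial RNA processing, stability and decay, 33 were in the counts and tested, and 0 passed the adjusted threshold in edgeR. At an unadjusted p under 0.05 there was 1 higher (Fastkd5, needed for the processing of mitochondrial mRNAs that are not flanked by tRNAs) and 1 lower (Fastk), against 3.59% and 2.60% of all genes. Fastkd5 had 416, 402 and 355 normalised counts in controls and 437, 563 and 497 in N-cre;Fox1 mice, a log2 fold change of 0.35 (SE 0.112, edgeR adjusted p = 0.712). Fastk, of which a mitochondrial form is required for mt-Nd6 mRNA, had a log2 fold change of -0.07 (SE 0.0303), with means of 4463 ± 42.4 (SD, n = 3) in controls and 4246 ± 28.7 (SD, n = 3) with the transgene, and no overlap. Both were named after their values were seen. Non-overlapping genotypes were found for 5 genes that were higher and 4 that were lower in N-cre;Fox1 mice, against 6.06% and 6.11% of all genes.

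Lrpprc and Slirp, which form a complex that stabilises mitochondrial mRNAs, had log2 fold changes of 0.02 (SE 0.0332) and 0.08 (SE 0.0675). Elac2, which cuts tRNAs from the precursors at their 3′ ends, and Trmt10c, the methyltransferase subunit of the RNase P that cuts their 5′ ends, had 0.01 (SE 0.0478) and -0.00 (SE 0.0797). Pnpt1 and Supv3l1, the nuclease and the helicase of the mitochondrial RNA degradosome, had -0.08 (SE 0.0531) and -0.08 (SE 0.0618). The values of Pnpt1 were lower in every N-cre;Fox1 mouse than in any N-cre mouse, and those of the other 5 genes overlapped.

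None of the 17 mitochondrial aminoacyl-tRNA synthetases passed the adjusted threshold in edgeR, 0 had an unadjusted p under 0.05 (against the same 2.60% and 3.59% of all genes), and their median log2 fold change was -0.02. Among 10 regulators of mitochondrial biogenesis, 0 passed, and 3 had an unadjusted p under 0.05, all higher in N-cre;Fox1 mice without overlap, against 3.59% of all genes. These were Ppargc1b (log2 fold change 0.31, SE 0.117), Pprc1 (0.23, SE 0.0522) and Yy1 (0.12, SE 0.0366), named after their values were seen. Ppargc1b and Pprc1 are coactivators of the PGC-1 family, whose best known member Ppargc1a had a log2 fold change of -0.05 (SE 0.0565).

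Markers of astrocytes were higher in sum in the genotype with the lower mitochondrial share. Their 6 genes summed to 3471 to 3579 CPM in controls and 3753 to 3996 in N-cre;Fox1 mice, without overlap, and 4 of the 6 had an unadjusted p under 0.05 (Gfap, Aqp4, Slc1a2 and Gja1, all higher), against 3.59% of all genes in that direction, while 0 passed after adjustment. The other 2 markers, Slc1a3 and Aldh1l1, had log2 fold changes of -0.02 (SE 0.0445) and -0.14 (SE 0.0853) and overlapped between the genotypes. Gfap, a filament protein of astrocytes, had a log2 fold change of 0.38 (SE 0.0700, edgeR adjusted p = 0.320). The part of astrocytes in the lower mitochondrial share was not tested. Summed markers of oligodendrocytes, microglia, endothelium, blood, and thalamus and striatum overlapped between the genotypes.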

How the data were processed

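Total RNA of 6 hippocampi (3 mice per genotype, grouped and numbered by the sample labels) was sequenced in pairs after a stranded total RNA kit. The submitters' processing notes name Cutadapt 1.18, STAR 2.5.2b and RSEM 1.3.0 on mm10, and the paper's methods name a GENCODE annotation. The authors deposited RSEM expected counts per isoform, neither normalized nor filtered; reads that fit several transcripts are divided between them. Here, isoforms were summed by symbol and rounded. Genotypes were compared over all genes with edgeR 4.0.16 in R 4.3.3 (quasi-likelihood, robust, TMM, filterByExpr with a minimum count of 10 and total of 15), with Benjamini-Hochberg adjustment and a threshold of 0.05. The paper tested isoforms with EBSeq, which was not run here. Normalised counts are TMM-scaled, and levels per kilobase use annotated lengths. Replicates are separate mice.

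Nuclear copies are genes that share at least 100 stretches of 31 bases with an mt- transcript and have a mean count of at least 100. Positions come from a later GENCODE annotation of mm10. Named were all mRNA and rRNA genes, the 3 highest tRNA genes by mean count with all ties above 0, the copies, Rbfox1, list members past the threshold, 12 nuclear genes fixed for the lists, the astrocyte markers and Gm42418 as values beside a result, and genes said to be named after their values were seen. The members and lists were chosen with earlier results of these data known. Alternatives were other normalizations (DESeq2 size factors, upper quartile, TMM on nuclear genes, mt- genes as their own library), other filters, DESeq2 1.42.0, limma-voom (limma 3.58.1), unrounded counts, the replicate number as a block, a term for high Xist, a stricter threshold, and each mouse left out. Adding the copies and leaving out the mice with high choroid plexus markers were chosen after seeing the data. The scripts were tested on simulated data.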

Additional observations from a re-analysis of the deposited data

How the results depend on the processing

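Over all genes, edgeR called 5 with the design as written, 45 with no filter beyond 1 count, 50 with the Wald test of DESeq2, 11 with a term for high Xist, 3 at an adjusted p under 0.01, and 2 to 29 with each mouse left out; 29 was reached without N-cre;Fox1 replicate 1, 2 without N-cre replicate 2, and 3 without N-cre replicate 3 or without N-cre;Fox1 replicate 3. Of the mt- genes, 1 (mt-Nd6) was called with DESeq2 and 0 in the other alternatives in which calls were counted. At an unadjusted p under 0.05 there were 1 to 9 mt- genes, beside 726 to 1777 of all genes. The 9 were reached with DESeq2, which also had the 726. Calls were not counted with the mt- genes as their own library, or with copies and a replicate block together. Of the regulators of biogenesis, 1 (Pprc1) was called with no filter. The share of the library on mt- genes differed by -0.263 to -0.219 percentage points with each mouse left out, and on mt- mRNA genes by -0.308 to -0.221, without a change of direction.

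The log2 fold changes of mt-Nd1, mt-Nd2, mt-Co1, mt-Nd3, mt-Nd4, mt-Nd5 and mt-Nd6 kept their sign in every alternative. Some came close to 0, at -0.00141 for mt-Co1, -0.00598 for mt-Nd1 and -0.0107 for mt-Nd3. With each mouse left out, mt-Rnr1 ranged from -0.0135 to 0.154 and mt-Rnr2 from -0.00983 to 0.130 (both negative without N-cre;Fox1 replicate 3), mt-Co2 from -0.0777 to 0.0198 (positive without N-cre replicate 1), and mt-Atp8 from -0.0192 to 0.0425 (positive without N-cre replicate 1, N-cre;Fox1 replicate 2 or N-cre;Fox1 replicate 3). With the mt- genes as a library of their own, mt-Co2 was at 0.0343, mt-Atp8 at 0.0686 and mt-Cytb at 0.000787. With copies added in that setting, mt-Co2 was at 0.0274, mt-Atp8 at 0.0604, mt-Co3 at 0.0240 and mt-Atp6 at -0.0145. With copies added on the usual scale, mt-Atp6 was at -0.0751 and mt-Nd4l at -0.0325, and with a replicate block as well at -0.0752 and -0.0324. mt-Atp8, near 0 as reported, was at 0.00135 with DESeq2 size factors, 0.00360 with TMM on nuclear genes, 0.00453 with no filter, 0.00296 with at least 10 counts in every mouse, 0.00108 with DESeq2, 0.000209 with limma-voom, 0.000540 with the Xist term, and 0.000527 with the replicate block (0.000550 with copies). The cause was not tested.

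The replicate numbers did not pair the mice: same-numbered mice had correlations of 0.38, -0.10 and -0.21 of their deviations from the group means, and not every mouse correlated best with its own number. With the replicate number as a block, 5 genes were called, none of them an mt- gene. At an unadjusted p under 0.05 there was 1 mt- gene (mt-Nd6, log2 fold change -0.19), beside 1055 of the 18924 genes tested. The mice also differed in Xist, with some above 1000 counts and some not. With a term for high Xist, 0 mt- genes were called. In that fit 1 mt- gene had an unadjusted p under 0.05, beside 1283 of the 18924 genes tested. Depth does not limit the mRNA and rRNA genes whereas tRNA genes were not measurable.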

Other observations

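Copies of mt- genes outside the block on chromosome 1 had few counts. Gm13340 and Gm13341 on chromosome 2 aligned with mt-Co1 and mt-Co2 and had mean counts of 3052 and 2038, and Gm13339 on the same chromosome aligned with mt-Nd2 and had 129. Gm4076 on chromosome 13 and Gm11407 on chromosome 4 aligned with mt-Nd5 at 90.4% and 84.7% identity and had 321 and 195. Their log2 fold changes lay between -0.07 (Gm4076) and 0.11 (Gm11407), and edgeR called none of them.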
